A study of Mus musculus with 2 samples.

Results

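Epithelial cells are kept in their state by a small set of transcription factors and by splicing factors found mainly in epithelia, and 10 genes of this kind are described here. They are Trp63, Grhl1, Grhl2, Grhl3, Ovol1, Elf3, Ehf and Klf5, which encode transcription factors, and Esrp1 and Esrp2, which encode splicing factors. They were chosen by gene symbol, as 10 of the 43437 genes of the deposited gene table, and 45 of its 103615 isoforms belong to them. The study has 1 RNA-seq library of the telencephalon and 1 of the whole body, both from untreated, wild-type fetuses of the outbred mouse stock ICR at E12.5. The telencephalon is the part of the embryonic brain that gives rise to the cerebral cortex, and the whole body contains surface ectoderm, gut and other epithelia. Neither the number of fetuses per library nor whether the whole body kept its head is given in the labels. Values are FPKM, in which fragment numbers are divided by transcript length and library size. With 1 library per group no difference has a replicate check, and no p-value is given.

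The steps between low FPKM values corresponded to about 22700000 fragments in the telencephalon library and 28800000 in the whole-body library. On a 2000-base transcript 1 fragment thus equalled 0.0267 FPKM in telencephalon and 0.0207 FPKM in whole body. Of 14 genes that mark the telencephalon, 13 were at least 2-fold higher in that library. All 12 genes listed as markers of surface ectoderm and epidermis, the outer cell sheet of the embryo, were below 1 FPKM in telencephalon. Some, such as Cdh1 and Epcam, are general epithelial genes, so the list is not particular to that sheet. The summed level of the 12 genes was 1.67 FPKM in telencephalon and 152 FPKM in whole body. Krt14, Krt18 and Krt19 were listed at 0 in telencephalon. Grhl2 is on this marker list as well, and the part that the small signal of these markers has in the values below was not tested. Of 10 choroid plexus markers, which would show the epithelium that the roof of the telencephalon forms, 7 were below 1 FPKM in telencephalon, and the summed level was 11.5 FPKM in telencephalon against 145 FPKM in whole body. Ttr, which liver also expresses, made up 2.34 FPKM of this in telencephalon and 104 FPKM in whole body, and Otx2 had 5.71 FPKM in telencephalon and 3.84 FPKM in whole body. Markers of other tissues were lower in telencephalon as well, by 2-fold or more in 8 of 8 hepatoblast, 8 of 8 connective tissue, 8 of 8 endothelial and macrophage and 5 of 8 erythroid genes, with medians of -6.67, -5.51, -1.99 and -4.13 on the log2 scale, so a lower level in telencephalon was not particular to epithelial genes. In bulk tissue, fewer cells of a type and less RNA per cell cannot be told apart.

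Trp63 encodes a relative of the tumour suppressor Trp53 and is required in the mouse for the stratified epidermis and for limb outgrowth. The grainyhead-like proteins Grhl1, Grhl2 and Grhl3 bind a shared DNA motif near genes of cell junctions and of the skin barrier, and mice without Grhl2 or Grhl3 fail to close the neural tube. Ovol1 is a zinc finger repressor of differentiating keratinocytes. Elf3 and Ehf belong to the epithelial branch of the Ets family, and Klf5 is a zinc finger factor of dividing epithelial cells that other tissues also use. Esrp1 and Esrp2 bind RNA and promote the epithelial choice of exons, the classic case being the exon IIIb of the fibroblast growth factor receptor gene Fgfr2.

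All 10 genes were lower in telencephalon than in whole body, both in FPKM and in estimated fragments scaled by depth. By such fragments, 60.8% of 16375 genes with at least 20 fragments over both libraries were lower too. The size of the difference varied widely among the 10 genes. Summed over the 10 genes, the level was 5.82 FPKM in telencephalon and 26.0 FPKM in whole body. Log2 ratios are of FPKM + 1, telencephalon over whole body, and so are smaller in size than the log2 of the FPKM folds, above all for low genes. Measured members, with at least 1 FPKM in telencephalon or whole body, numbered 7. Of these, 6 were lower in telencephalon by 2-fold or more on that scale, beside 21.2% of all 14987 measured genes, and none was higher, beside 9.39%. At 4-fold 2 members were lower, Trp63 and Esrp1, beside 8.23%. Those 7 had a median log2 ratio of -1.15, and all measured genes one of -0.16. The other 3, Grhl1, Ovol1 and Ehf, did not reach 1 FPKM in either library, and with them the median of all 10 was -1.09. A member that reached 1 FPKM only in whole body could hardly do other than be lower, so the count describes these genes and supports nothing further. Set against estimated fragments in place of FPKM, 9 of the 10 members, all but Ovol1, had a ratio of 0.5 or less, beside 27.5% of the 16375 genes.

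**Figure D1:**
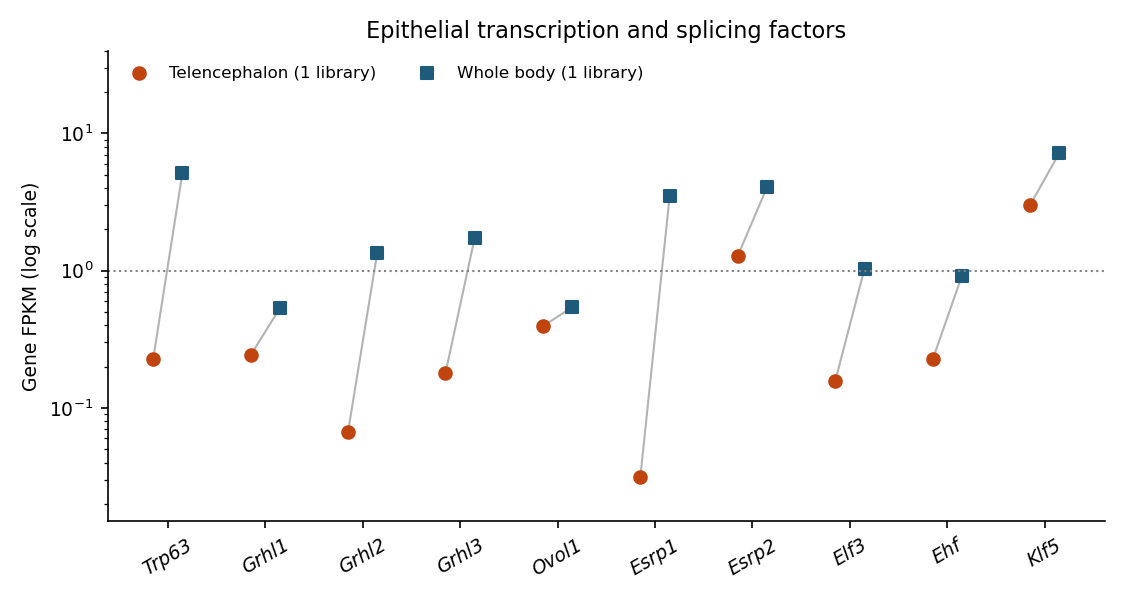
FPKM of each gene on a log scale in telencephalon (circles, left) and whole body (squares, right), with 1 library each and the dotted line at 1 FPKM. Every line rises to the right, from the shallow one of Ovol1 to the steep one of Esrp1, and in telencephalon only Klf5 and Esrp2 lie above 1 FPKM.

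The order of the levels differed between the libraries. In telencephalon Klf5 was highest at 3.01 FPKM, followed by Esrp2 at 1.28 FPKM and Ovol1 at 0.394 FPKM, and the other 7 lay between 0.0316 and 0.242 FPKM. The place of Esrp2 rests on a short non-coding transcript described below, and its coding transcripts had 0.0296 FPKM there. By estimated fragments Ovol1 and Grhl1, with 23 and 17 in telencephalon, stood above Esrp2 with 12. In whole body Klf5 was highest at 7.23 FPKM, followed by Trp63 at 5.12, Esrp2 at 4.06 and Esrp1 at 3.48 FPKM, and the other 6 lay between 0.531 and 1.74 FPKM. None of the 10 was abundant: the median of all measured genes was 8.33 FPKM in telencephalon and 10.2 FPKM in whole body. The neighbours Trp63 and Ehf in telencephalon, both at 0.226 FPKM, and Ovol1 and Grhl1 in whole body, at 0.542 and 0.531 FPKM, cannot be ordered on the 2 to 48 fragments behind each.

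Trp63 (chromosome 16, 25683763 to 25892102, plus strand of GRCm38) had the lowest log2 ratio of the 10. It stood at 0.226 FPKM in telencephalon and 5.12 FPKM in whole body, 22.7-fold lower, with a log2 ratio of -2.32. The estimate was 12 fragments in telencephalon and 439 in whole body, which scaled by depth is 29.1-fold lower with a 95% exact interval from 16.3 to 56.2. Such intervals cover counting error within these libraries only. The gene has an upstream promoter, whose TA forms carry the full activation domain, and an internal promoter, whose delta N forms lack it and prevail in basal epidermal cells. The TA alpha transcript has 14 exons and 2040 coding bases, and a delta N alpha transcript 12 exons and 1758 coding bases. Only part of the coding letters that set the forms apart is shown, that of each promoter's own first coding exon. The letters are from GENCODE M21 on GRCm38, with the start codon in capitals.
Trp63 delta N, chr16:25802060-25802101, plus strand: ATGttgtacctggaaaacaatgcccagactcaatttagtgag
Trp63 TA, chr16:25684290-25684351, plus strand: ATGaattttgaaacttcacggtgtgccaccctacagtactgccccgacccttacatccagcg

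The delta N forms held most of the Trp63 signal in both libraries. They made up 86.6% of its FPKM in telencephalon and 85.1% in whole body, from about 11 and 375 fragments. In FPKM the delta N forms stood at 0.196 in telencephalon and 4.36 in whole body, and the TA forms at 0.0304 in telencephalon and 0.765 in whole body. The TA value of the telencephalon rests on about 1 fragment, so its share cannot be told from that of whole body at this depth. The ends of the transcripts, which give the alpha, beta and gamma proteins, divided differently. The alpha and gamma ends held 13.4% and 14.0% of the signal in telencephalon, against 45.2% and 48.6% in whole body. In telencephalon 72.7% lay in short transcripts of 6 exons or fewer, mainly a delta N transcript of 2634 bases with about 7 fragments, against 1.70% in whole body. These shares depend on how the authors' software divided reads among overlapping transcripts.

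**Figure D2:**
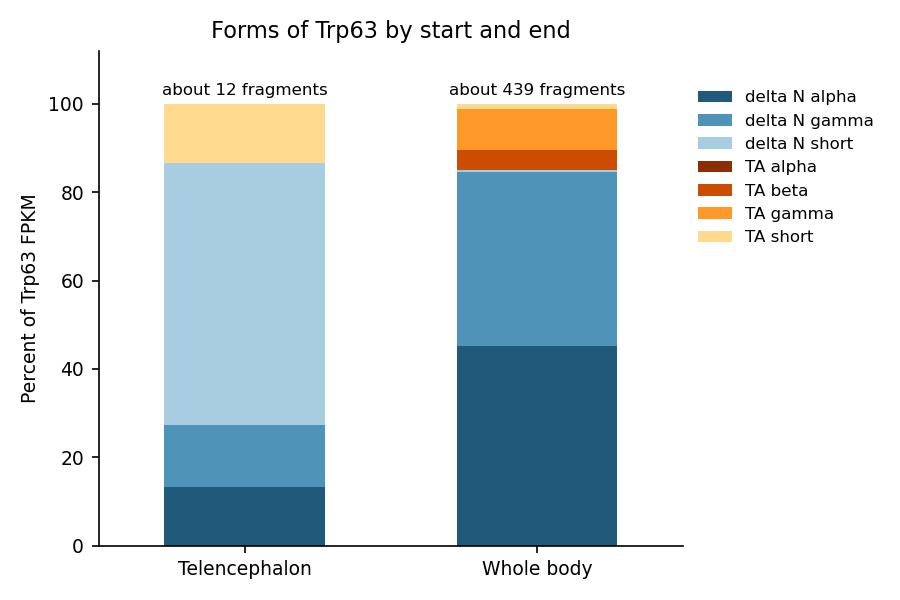
Percent of Trp63 FPKM in each form, by start (delta N in blue, TA in orange) and end, in telencephalon (left) and whole body (right), 1 library each. The blue share is 86.6% and 85.1%, but the telencephalon bar stands for about 12 fragments and the whole-body bar for about 439.

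The 3 grainyhead-like genes differed among themselves. Grhl2 (chromosome 15, 37233036 to 37363569) had 0.0669 FPKM in telencephalon and 1.35 FPKM in whole body, 20.2-fold lower (log2 ratio -1.14). It had about 5 fragments in telencephalon and 172 in whole body, 27.3-fold lower after scaling (interval 11.4 to 84.6). Those of the telencephalon all lay in a non-coding transcript of 3617 bases, and the coding transcripts had none there, against 1.13 FPKM in whole body. An antisense gene, Gm16136, shares 169 exon bases with the main coding transcript of Grhl2 and stood at 3.62 FPKM in telencephalon and 1.50 FPKM in whole body. Without strand, which the kit does not keep, reads of those bases could come from either gene, though the non-coding transcript does not contain them.

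Grhl3, which in the mouse acts in neural tube closure and in the skin barrier (chromosome 4, 135541888 to 135573630), had 0.179 FPKM in telencephalon and 1.74 FPKM in whole body. This was 9.71-fold lower (log2 ratio -1.22), on about 10 fragments in telencephalon and 124 in whole body. Grhl1 (chromosome 12, 24572283 to 24617391) had 0.242 FPKM in telencephalon and 0.531 FPKM in whole body, 2.20-fold lower, with a log2 ratio of -0.30. Its 17 fragments in telencephalon and 48 in whole body give 2.25-fold lower after scaling, with an interval from 1.26 to 4.13. The counting intervals of Grhl1 and Grhl2 do not overlap, and that of Grhl3, from 5.14 to 20.9, lies above that of Grhl1.

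Ovol1 differed least (chromosome 19, 5549136 to 5560646). It stood at 0.394 FPKM in telencephalon and 0.542 FPKM in whole body, with a log2 ratio of -0.15. About 23 fragments in telencephalon and 41 in whole body give 1.39-fold lower after scaling, and the interval, from 0.824 to 2.45, includes no difference. The annotation places 690 bases of the pseudogene Gm31166 and 76 bases of a further antisense gene opposite its exons, and reads of these cannot be told from those of Ovol1 without strand.

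The Ets genes were low in both libraries. Elf3 (chromosome 1, 135253575 to 135258568) had 0.157 FPKM in telencephalon and 1.03 FPKM in whole body, 6.56-fold lower (log2 ratio -0.81), on about 5 and 49 fragments. Ehf (chromosome 2, 103263433 to 103303278) had 0.226 FPKM in telencephalon and 0.921 FPKM in whole body, 4.07-fold lower (log2 ratio -0.65). Behind these values were about 2 fragments in telencephalon and 38 in whole body, 15.7-fold lower after scaling with an interval from 3.87 to 128. In telencephalon 93.9% of the FPKM of Ehf came from a transcript of 530 bases, on which a single fragment is worth far more FPKM than on the main transcripts.

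Klf5 was the best measured member (chromosome 14, 99298691 to 99315036), with a single transcript. It stood at 3.01 FPKM in telencephalon and 7.23 FPKM in whole body, 2.40-fold lower, with a log2 ratio of -1.04. About 205 fragments in telencephalon and 631 in whole body give 2.42-fold lower after scaling, with an interval from 2.07 to 2.85. In TPM its log2 ratio was -0.99, and after scaling to a common upper quartile -0.98, both short of 2-fold.

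The splicing factor genes were both lower, Esrp1 by more than any other member in FPKM fold. Esrp1 (chromosome 4, 11331933 to 11386783) had 0.0316 FPKM in telencephalon and 3.48 FPKM in whole body, 110-fold lower (log2 ratio -2.12). It had about 2 fragments in telencephalon and 311 in whole body, a ratio of 124 after scaling with an interval from 33.6 to 1017. Esrp2 (chromosome 8, 106130319 to 106136974) had 1.28 FPKM in telencephalon and 4.06 FPKM in whole body, 3.16-fold lower (log2 ratio -1.15).

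The 2 ways of reading Esrp2 differed more than for any other member. In telencephalon 97.7% of its FPKM came from a retained-intron transcript of 721 bases, which held 1.26 FPKM and about 11 fragments. The coding transcripts of Esrp2 had 0.0296 FPKM in telencephalon, about 1 fragment, against 3.25 FPKM and about 301 fragments in whole body, where they made up 80.0% of the gene. Over all transcripts the estimate was 12 fragments in telencephalon and 314 in whole body, 21.4-fold lower after scaling with an interval from 11.6 to 40.3. The log2 ratio of the coding transcripts alone was -2.05, a setting added after the values were seen. The retained-intron transcript shares no exon bases with an annotated neighbour. The main coding transcript shares 219 bases with Nfatc3, which lies on the opposite strand and stood at 8.94 FPKM in telencephalon and 25.3 FPKM in whole body.

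**Figure D3:**
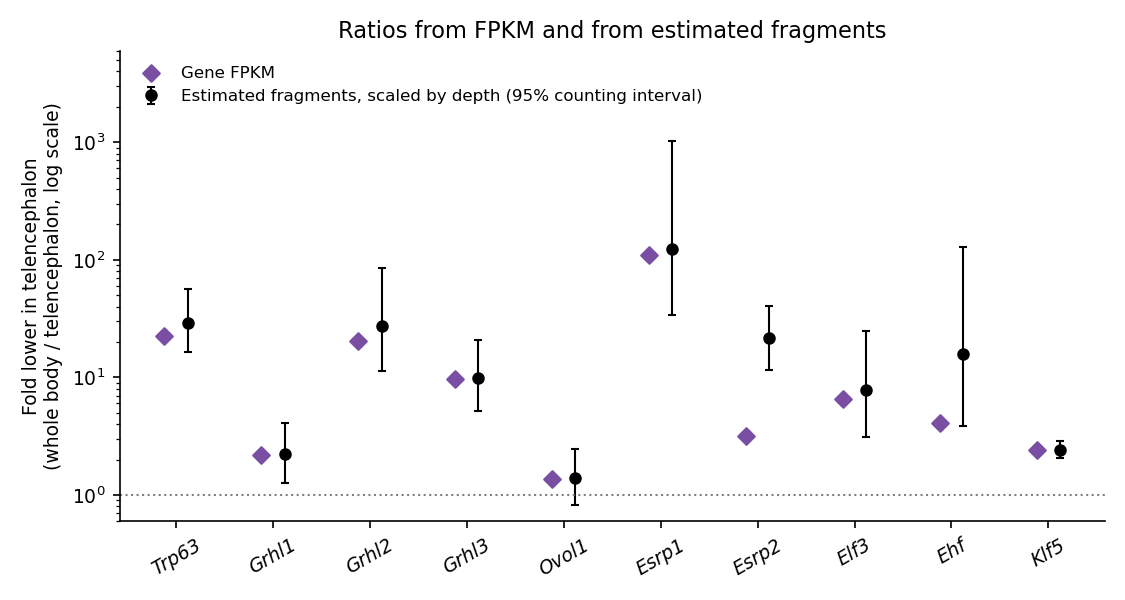
Fold by which each gene was lower in telencephalon (whole body over telencephalon, log scale), from gene FPKM (diamonds) and from estimated fragments scaled by depth (circles, bars are 95% exact intervals for counting error only). The readings lie close together except for Esrp2, at 3.16 and 21.4, and Ehf, at 4.07 and 15.7, and only the interval of Ovol1 reaches 1.

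Promoter windows, from 250 bases before to 50 after the annotated start, were given in the RefSeq tables (GRCm38.p6) for Grhl1, Grhl3 and Elf3, 3 of the 10 members. They were searched on both strands for CACCTG, the E-box bound by the repressors Zeb1, Zeb2 and Snail, for the grainyhead motif AACNGGTT, the Ets motif CCGGAAGT and the Klf motif GGGNGTGG. Of 32851 windows of all genes, 20.2% held the E-box, 2.09% the grainyhead, 3.89% the Ets and 17.6% the Klf motif. Grhl3 and Elf3 are shown because their windows held matches, which stand in capitals. All 3 members with windows, Grhl1 included, were lower in telencephalon.
Grhl3, chr4:135573583-135573882, minus strand: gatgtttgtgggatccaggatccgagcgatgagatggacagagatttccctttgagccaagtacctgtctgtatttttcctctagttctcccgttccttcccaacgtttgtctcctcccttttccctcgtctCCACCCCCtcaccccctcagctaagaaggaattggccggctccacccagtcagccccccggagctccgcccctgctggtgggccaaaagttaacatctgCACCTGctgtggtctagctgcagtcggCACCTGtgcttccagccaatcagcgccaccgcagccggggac
Elf3, chr1:135258423-135258722, minus strand: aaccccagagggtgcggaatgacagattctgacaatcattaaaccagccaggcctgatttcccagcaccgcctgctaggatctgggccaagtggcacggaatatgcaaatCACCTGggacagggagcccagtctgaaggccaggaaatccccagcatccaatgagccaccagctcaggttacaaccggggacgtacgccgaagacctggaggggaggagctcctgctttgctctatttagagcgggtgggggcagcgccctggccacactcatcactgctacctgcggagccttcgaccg
The window of Grhl3 held 2 E-boxes and 1 Klf match, and that of Elf3 1 E-box. The 2 windows of Grhl1 held no match to any of the 4 motifs. A match of letters is a description and does not show a bound site.

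Genes known in mouse or human cells to be spliced by the Esrp proteins carried smaller shares of their epithelial forms in telencephalon for Fgfr2, Enah and Ctnnd1. Fgfr2 was itself at similar levels, with 41.3 FPKM in telencephalon and 46.6 FPKM in whole body. Its receptor binds a different set of fibroblast growth factors depending on which of the mutually exclusive exons IIIb, the epithelial one, and IIIc, the mesenchymal one, is used. Transcripts with the IIIb exon made up 5.14% of the classified Fgfr2 FPKM in telencephalon and 25.0% in whole body. They stood at 1.20 FPKM in telencephalon and 6.64 FPKM in whole body, whereas transcripts with IIIc stood at 22.0 FPKM in telencephalon and 19.9 FPKM in whole body. About 53 of 1726 classified fragments in telencephalon and 493 of 2499 in whole body were assigned to IIIb. The classified transcripts held 56.2% of the FPKM of the gene in telencephalon and 56.9% in whole body, and the rest lay in transcripts that contain neither exon. The telencephalon value came entirely from 1 transcript of 2296 bases that also differs from the main IIIc transcripts at its ends, so it depends on how reads were divided.

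Enah, a regulator of actin filaments at the leading edge of cells, includes a cassette exon in epithelia. That exon is shown, from GENCODE M21 on GRCm38, because its inclusion defines the epithelial form.
Enah epithelial exon, chr1:181911597-181911659, minus strand: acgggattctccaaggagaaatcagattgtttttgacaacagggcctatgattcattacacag
The transcript with this exon of 63 bases made up 0.315% of the classified Enah FPKM in telencephalon and 14.6% in whole body. It stood at 0.187 FPKM in telencephalon and 4.88 FPKM in whole body, on about 14 and 457 fragments, while Enah as a whole stood at 65.9 FPKM in telencephalon and 45.4 FPKM in whole body. The higher level of the gene in telencephalon thus came from transcripts without the exon, with 59.2 FPKM in telencephalon and 28.5 FPKM in whole body. The classified transcripts held 90.2% of the FPKM of Enah in telencephalon but 73.6% in whole body. The share of the epithelial form rests on 1 annotated transcript and so depends on how reads were divided.

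Ctnnd1 encodes p120 catenin, which stabilises cadherins, and epithelial cells make a shorter protein that starts downstream. Transcripts with the short start made up 1.60% of its classified FPKM in telencephalon and 11.3% in whole body, at 0.492 FPKM in telencephalon and 5.57 FPKM in whole body. Those with the long start stood at 30.1 FPKM in telencephalon and 43.2 FPKM in whole body. Cd44, a hyaluronan receptor whose variable exons are included in epithelia, went the other way in share. Transcripts with variable exons made up 50.7% of Cd44 in telencephalon and 22.7% in whole body. The telencephalon share rests on about 29 fragments, since Cd44 stood at 0.351 FPKM there and at 7.73 FPKM in whole body, and in level the variable forms were lower, at 0.178 FPKM in telencephalon against 1.75 FPKM in whole body.

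**Figure D4:**
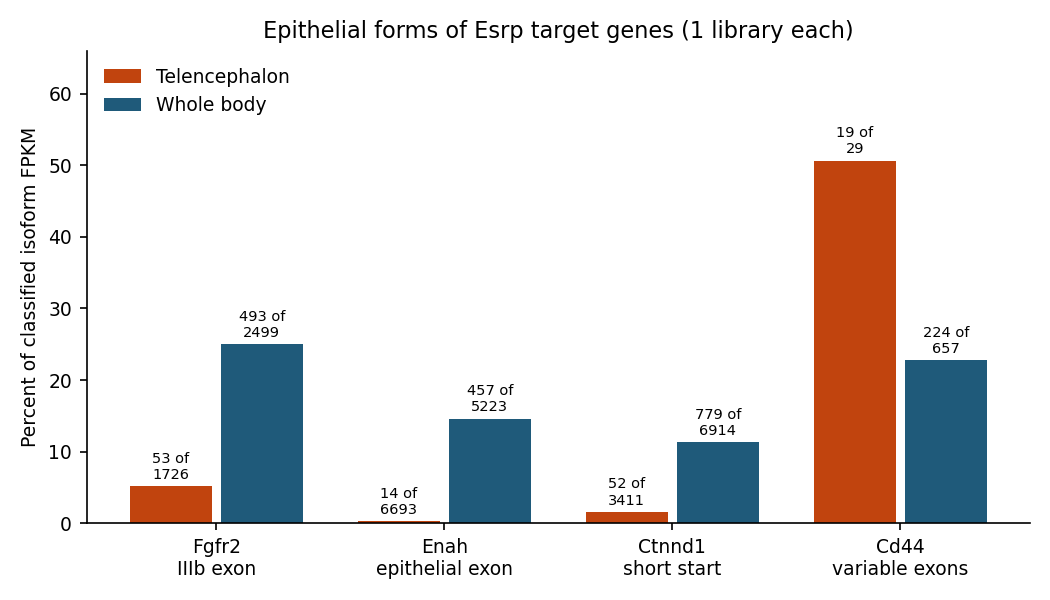
Percent of the classified isoform FPKM in the epithelial form of 4 Esrp target genes, in telencephalon (left bars) and whole body (right bars), 1 library each, with the estimated fragments of that form out of all classified ones above each bar. The share is lower in telencephalon for Fgfr2 (5.14% against 25.0%), Enah (0.315% against 14.6%) and Ctnnd1 (1.60% against 11.3%), and higher for Cd44 (50.7% against 22.7%), whose telencephalon bar has about 29 fragments.

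At the level of the whole gene the targets went both ways. Arhgef11 stood at 13.7 FPKM in telencephalon and 10.6 FPKM in whole body, and the receptor genes Fgfr1 and Fgfr3 had log2 ratios of -1.06 and 1.02. Among the 7 target genes 2 were lower by 2-fold or more, beside 21.2% of all measured genes, and 1 was higher, beside 9.39%. Their median log2 ratio was -0.17, close to that of all measured genes. With a common upper quartile or in TPM, Fgfr1 was no longer 2-fold lower.

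Genes that these factors are known to act on, and that make the epithelial sheet, were mostly lower in telencephalon. Markers of other non-neural tissues were lower as well. On the adhesion, basal layer and ectodermal factor lists below, 26 of 37, 16 of 24 and 28 of 32 genes were below 1 FPKM in telencephalon. Measured ones among them reached 1 FPKM only in whole body and had to be lower, so the counts describe these lists only. Among 33 measured genes of epithelial adhesion, polarity and junctions, 23 were lower by 2-fold or more, beside 21.2% of all measured genes, and none was higher, beside 9.39%, with a median log2 ratio of -1.68, beside -0.16 for all measured genes. Cldn6, a tight junction protein of early epithelia, stood at 0.113 FPKM in telencephalon and 18.2 FPKM in whole body, and Perp, a desmosomal protein and target of Trp63, at 0.196 FPKM in telencephalon and 9.77 FPKM in whole body. At the other end Pard6b, a polarity protein, stood at 6.94 FPKM in telencephalon and 4.01 FPKM in whole body. Cdh1, the epithelial cadherin, named after its values were seen, stood at 0.282 FPKM in telencephalon and 8.77 FPKM in whole body.

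Of 24 genes of the epidermal basal layer and Trp63 programme, 18 were at least 2-fold lower, beside 21.2% of all measured genes. In this list 1 gene was higher, beside 9.39%, and the median was -1.92. The basal keratin gene Krt5 stood at 0.0948 FPKM in telencephalon and 27.3 FPKM in whole body, and its partner Krt14 had a listed value of 0 in telencephalon, against 21.5 FPKM in whole body. The exception was Bcl11b, a transcription factor of skin that deep-layer and striatal neurons also express, with 114 FPKM in telencephalon and 14.9 FPKM in whole body.

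Of 23 measured other transcription factors of surface ectoderm and epithelia 18 were at least 2-fold lower, beside 21.2% of all measured genes. Another 2 were higher, beside 9.39%, and the median was -1.70. Bnc2, a zinc finger protein, stood at 0.813 FPKM in telencephalon and 33.6 FPKM in whole body, and Tfap2b, a factor of neural crest and kidney, at 0.787 FPKM in telencephalon and 26.4 FPKM in whole body. The 2 higher ones were Sox21, which neural progenitors also express, with 15.7 FPKM in telencephalon and 2.17 FPKM in whole body, and Tfap2c, named after its values were seen, with 9.01 FPKM in telencephalon and 1.46 FPKM in whole body. For both, as for Bcl11b, the list they stand on names a tissue other than the one in which they were higher.

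Genes of the mesenchymal state, several of which encode repressors of the genes described here, split into genes far lower and genes near or above the whole-body level. Of 15 measured ones 9 were at least 2-fold lower, beside 21.2% of all measured genes, and 2 higher, beside 9.39%. The median was -2.88. Twist2 stood at 0.133 FPKM in telencephalon and 32.8 FPKM in whole body, and Prrx2 at 0.557 FPKM in telencephalon and 37.0 FPKM in whole body; both mark embryonic connective tissue. The neural cadherin gene Cdh2 was higher, with 110 FPKM in telencephalon and 44.7 FPKM in whole body. The repressor genes Zeb1 and Zeb2, named after their values were seen, stood at 30.2 and 66.5 FPKM in telencephalon and at 22.2 and 28.6 FPKM in whole body. By estimated fragments Zeb2 was short of 2-fold higher, with a ratio of whole body over telencephalon of 0.564 after scaling (interval 0.536 to 0.594). A non-coding Zeb2 transcript of 618 bases carried 15.3 FPKM in telencephalon and 1.01 FPKM in whole body. The repressor genes Snai1 and Snai2, also named after their values were seen, went the other way. They stood at 0.957 and 0.415 FPKM in telencephalon and at 41.7 and 17.4 FPKM in whole body. Low Esrp1, Grhl2 and Cdh1 thus stood beside Zeb genes at or above their whole-body level and Snai genes far below theirs. The part of the Zeb and Snai genes in those levels was not tested.

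The relatives of the 10 genes went both ways. Of 23 measured paralogues 5 were at least 2-fold lower and 2 higher, with a median of -0.54. These shares are near those of all measured genes, 21.2% lower and 9.39% higher, and a difference between paralogues and members was not tested. In the Trp53 family, Trp73, which Cajal-Retzius neurons and the choroid plexus express, went in the opposite direction to Trp63, with 10.7 FPKM in telencephalon and 0.938 FPKM in whole body, 11.4-fold higher. By estimated fragments, 624 in telencephalon and 126 in whole body, the difference was smaller, with a ratio of whole body over telencephalon of 0.159 after scaling (interval 0.130 to 0.193). A Trp73 transcript of 759 bases carried 4.21 FPKM of this in telencephalon and none in whole body. Trp53 itself stood at 59.6 FPKM in telencephalon and 95.8 FPKM in whole body. In the wider grainyhead family, the ubiquitous Tfcp2 and Ubp1 stood at 6.36 and 14.7 FPKM in telencephalon and at 6.26 and 21.7 FPKM in whole body, whereas Tfcp2l1, a factor of kidney and other epithelia, stood at 0.0836 FPKM in telencephalon and 0.884 FPKM in whole body.

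Among the closer epithelial relatives, Ovol2 had 0.661 FPKM in telencephalon, 3.03-fold lower than in whole body, on about 4 fragments in telencephalon and 23 in whole body. Elf5 stood at 0.240 FPKM in telencephalon and 0.624 FPKM in whole body, and Spdef at 0.148 FPKM in telencephalon and 0.385 FPKM in whole body, neither reaching 1 FPKM in either library. Klf4, a factor of differentiating epidermis, was 13.6-fold lower, with 0.864 FPKM in telencephalon and 11.7 FPKM in whole body, a far larger fold than that of Klf5. Klf1, the erythroid member of the family, was 104-fold lower, with 0.623 FPKM in telencephalon and 65.0 FPKM in whole body. Klf8, named after its values were seen, was listed at 51.4 FPKM in telencephalon and 9.75 FPKM in whole body, but a transcript of 247 bases carried 92.0% and 82.7% of this, and without it the log2 ratio was 0.93 in place of 2.28.

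Other splicing regulators were found on both sides. Among 27 genes, 8 were lower by 2-fold or more, beside 21.2% of all measured genes, and 8 were higher, beside 9.39%, with a median of 0.28. In TPM the counts were 6 lower and 9 higher. Mbnl1, a muscleblind protein, stood at 19.5 FPKM in telencephalon and 125 FPKM in whole body, and Ptbp3 at 8.74 FPKM in telencephalon and 44.2 FPKM in whole body. Nova2, a splicing factor of cortical neurons, stood at 40.3 FPKM in telencephalon and 7.59 FPKM in whole body.

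**Figure D5:**
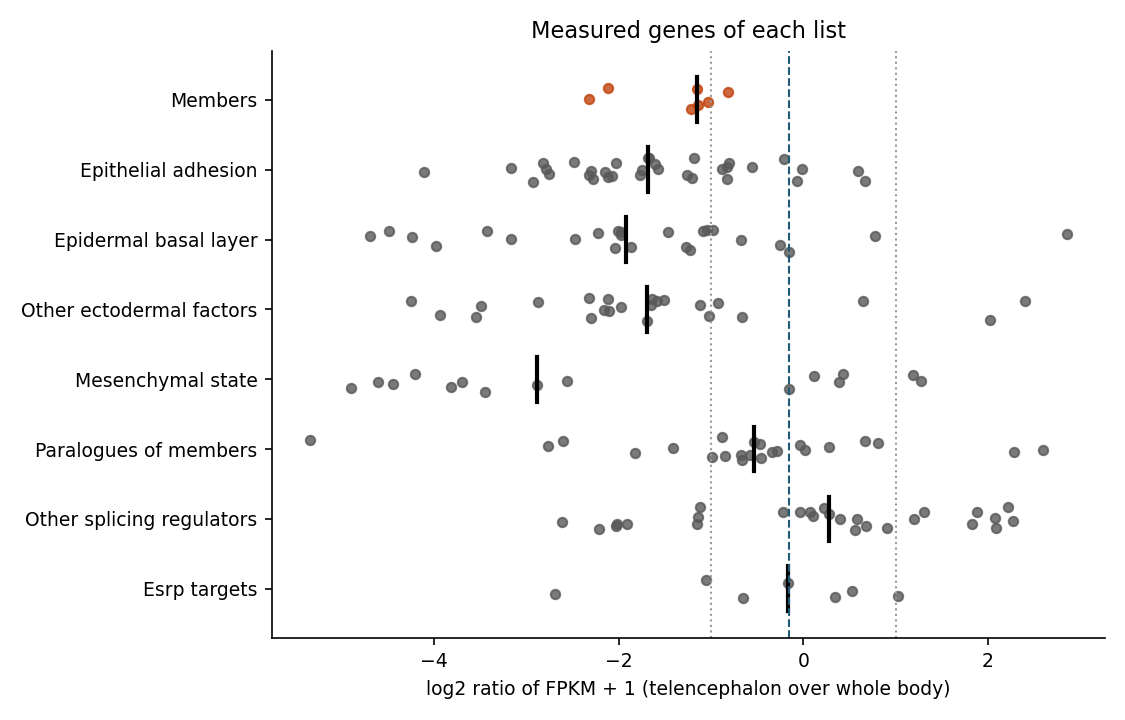
Log2 ratio of FPKM + 1 (telencephalon over whole body) of each measured gene, by list, with the 10 genes described here (7 measured) at the top, list medians as black bars, 2-fold as dotted lines and the median of all measured genes, -0.16, as the dashed line. The epithelial lists lie mostly to the left, the mesenchymal list in separate groups, and the splicing regulators on both sides.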

How the data were processed

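The files hold FPKM per gene and FPKM per isoform, 2 tables made by the authors with a column for each library. RNA was column-purified, and TruSeq RNA v2 libraries, which hold polyadenylated RNA without its strand, were run on a HiSeq 2000, per the labels' protocols. TopHat, Cufflinks and Cuffdiff with GRCm38 were used, per the submitters' processing notes. Versions and annotation are not given in the sources used here. Since the deposited FPKM are no counts, they went into no count model. Lengths, coordinates and forms came from GENCODE M21, of the same build, to which 42276 of 43437 genes matched by identifier.

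Depth was fitted to single-isoform genes of 1000 bases or more, so that their low FPKM came out as whole fragments. With 350 and 320 bases subtracted from lengths in telencephalon and whole body, 93.5% of 2029 and 94.1% of 1824 low values were whole within 0.1 fragments, against 20% by chance, on the genes used for the fit. Fragments of a gene are summed over its isoforms as the authors' software divided them.

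Log2 ratios used a pseudocount of 1 FPKM, and a gene counted as measured from 1 FPKM in telencephalon or whole body. Intervals are exact 95% binomial ones. Named genes were the members, the 2 lowest and the 1 highest measured gene of each list, all Esrp targets and the closest relatives of the members. Forms were assigned from exon and start codon positions. Foxc2 and Snai3 of the lists are not analysed here, and Nectin1 shares a row with Pvrl1. Members and lists were chosen with earlier results of these data known. Counts of 2-fold differences were checked on simulated data with known changes well beyond 2-fold and counting noise only. Changes near 2-fold and variation between libraries were not covered. Python 3.11.15, pandas 2.3.3 and scipy 1.17.1 were used.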

Additional observations from a re-analysis of the deposited data

How the results depend on the processing

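All 60 alternative log2 ratios of the 10 members (6 settings each) were below 0. A change of pseudocount cannot turn the sign, and leaving out isoforms under 300 bases hardly moved the ratios. Those settings thus tested nothing about direction. No paired analysis was possible because each group has 1 library, and no replicate could be left out. The count of 6 lower members became 5 of 7 with a common upper quartile, where Klf5 missed 2-fold, and 7 of 7 with a pseudocount of 0.1 or 0.5 FPKM. In TPM it was again 6, with Elf3 at -1.18 in and Klf5 at -0.99 out. It became 9 of 10 with estimated fragments, a setting added after the data were seen, 2 at 4-fold and 2 of 2 with a floor of 5 FPKM. The members' median of -1.15 was -2.72 with a pseudocount of 0.1 FPKM, -1.71 with 0.5 FPKM, -1.67 in TPM and -1.68 with a floor of 5 FPKM. TPM moved the median of all measured genes to -0.01.

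At a floor of 5 FPKM fewer genes were measured, and the lower ones numbered 11 of 16 in the adhesion list and 9 of 14 in the basal layer list. They numbered 7 of 9 among ectodermal factors and 2065 of 10909 over all genes. At 4-fold, with the floor of 1 FPKM, these counts were 14 of 33, 10 of 24, 10 of 23 and 1234 of 14987. There 3 of 23 paralogues were lower, and of 27 splicing regulators 4 were lower and 4 higher. Of 7 Esrp targets 1 was lower and 0 higher, and of 15 mesenchymal genes 0 were higher. Lower paralogues numbered 9 with a pseudocount of 0.1 and 8 with 0.5 FPKM, and 1 was higher without isoforms under 300 bases. In TPM or with a common upper quartile 1 Esrp target was lower. Leaving out short or non-coding isoforms removed none with signal among the classified forms and so tested nothing about their shares. All members but Klf5 rest on 2 to 23 fragments in telencephalon, which leaves their folds wide intervals.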
